A study of Mus musculus with 3 samples.

Results

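The transport of immunoglobulin A (IgA) into the gut lumen was described from 8 genes: Pigr, Jchain, Mzb1, Xbp1, Derl3, Prdm1, Sdc1 and Pou2af1. They were taken by symbol from the 3 isoform tables of the series, the FPKM of a gene's isoforms being summed, and all 8 of the 24346 symbols listed had a row. FPKM are fragments scaled to transcript length and to mapped depth, so levels of different genes can be compared. All 3 tables carry the same labels: distal colon of wild-type (WT) mice, strain given as JAX, aged 8 weeks, at steady state, rinsed in PBS and frozen before RNA extraction. They form 1 group without a contrast between conditions, and the labels do not say whether 1 animal or several were used. The names of the deposited files carry the same sample, index and lane and differ only in a final number, which is also how consecutive blocks of reads from a single library are named. The labels give each file as a sample of its own, and no source used here says whether the files are separate libraries or blocks of reads from 1 library. As given below, differences between the files were about the size of fragment sampling error, and the files were counted as 1 sample. Each ± is therefore the SD over 3 files, holds no spread between animals and, if the files are blocks of 1 library, is the spread of repeated sampling from it. The median printed for a gene list or for all symbols is that of the genes' mean levels. Its ± is the SD of the medians of the 3 files, and the printed median can lie outside their range.

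Plasma cells of the gut wall assemble IgA into polymers with the joining chain, the product of Jchain. The polymeric immunoglobulin receptor, the product of Pigr, binds these polymers on the basal side of epithelial cells, carries them across the cell and is cleaved at the luminal surface, where part of it stays bound as the secretory component. Plasma cells arise from B cells under the transcription factors Prdm1 (Blimp-1) and Xbp1, with the coactivator Pou2af1. Mzb1 and Derl3 act in the endoplasmic reticulum, where antibody chains fold and misfolded chains are withdrawn, and Sdc1 (CD138) is a surface proteoglycan by which plasma cells are commonly sorted. Xbp1 and Sdc1 are also made by epithelial cells, and Prdm1 by other immune and epithelial cells. The RNA is that of whole tissue, so fewer cells of a type and less RNA per cell cannot be told apart.

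The listed isoforms of Xbp1 are 2, of 2247 and 2221 bases, while each of the other 7 genes has 1. The 26 bases by which they differ are those that the stress sensor IRE1 cuts out of the transcript in the cytoplasm. In the GENCODE M21 transcript of Xbp1 a single stretch of this length lies between a pair of sites with the letters CNG before and CNG after the cut. It lies in the coding part of exon 4 of 5, on the plus strand of GRCm38 at chr11:5524279-5524304. It is shown because the isoform result below turns on it, with the 26 bases in capitals and 20 bases on each side.
Xbp1 stretch: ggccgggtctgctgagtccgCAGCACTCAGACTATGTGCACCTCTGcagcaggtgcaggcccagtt
With these bases the reading frame has 267 codons. Without them the frame shifts and has 371, which is the active transcription factor.

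The unspliced form of Xbp1 made up most of its transcript in every file. The authors' deposited level of the unspliced form was 69.0 FPKM in replicate 1, with deposited 95% bounds of 62.0 and 75.9. It was 76.8 FPKM in replicate 2, with bounds of 69.3 and 84.2, and 65.8 FPKM in replicate 3, with bounds of 54.5 and 77.2. The spliced form stood at 10.1 FPKM (bounds 6.88 and 13.3), 12.4 FPKM (bounds 8.89 and 16.0) and 13.1 FPKM (bounds 6.77 and 19.4) in replicates 1, 2 and 3. The bounds of the 2 forms did not overlap in any file. The spliced form thus held 12.8%, 13.9% and 16.6% of the Xbp1 level, 14.4% ± 1.95 over the files. Apart from these 26 bases and their junction the 2 forms share their whole sequence, and no source used here says how the aligner treated a gap this short. The genes of the 2 IRE1 enzymes, named here after their values were seen, stood at 10.9 ± 1.08 FPKM for Ern2, the form found in mucosal epithelium, and 2.93 ± 0.269 FPKM for Ern1, the form of most cells.

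**Figure D1:**
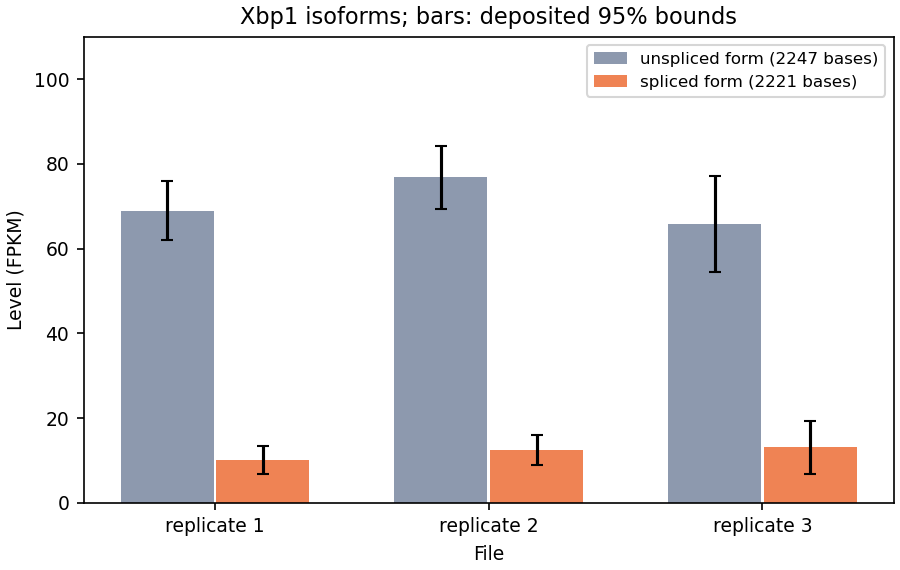
Level of the unspliced and spliced forms of Xbp1 in each file (vertical axis, FPKM), with the deposited 95% bounds as error bars. The unspliced form lies between 65.8 and 76.8 FPKM and the spliced form between 10.1 and 13.1 FPKM, without overlap of the bounds.

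Pigr was the highest of the 8 genes. Its level was 939 FPKM in replicate 1, 942 FPKM in replicate 2 and 918 FPKM in replicate 3, a mean of 933 ± 13.1 FPKM (chromosome 1, 130826684 to 130852249). This placed it 63rd among all symbols, and it rested on 29627 fragments over the 3 files. Set against genes that mark epithelial cells in general, Pigr stood at 1.18 ± 0.0386 times Epcam, the epithelial adhesion molecule, and 3.31 ± 0.0511 times Cdh1, the gene of E-cadherin, named after its value was seen. It reached 0.555 ± 0.0142 times the keratin gene Krt8 and 0.666 ± 0.00517 times Krt19. Against Cldn7 the ratio was 2.18 ± 0.0763 and against Vil1 6.95 ± 0.103. In each of these comparisons the 3 files lay on the same side of 1. Krt20 at 212 ± 0.228 FPKM and Krt18 at 147 ± 8.57 FPKM, the rest of this list of 8 genes, were lower than Pigr in every file. Vil1, Krt20 and Krt18 were named after their values were seen. Transcripts of several other genes match the Pigr transcript over 100 to 135 bases, or up to 3.51% of its length, at 97% identity or more. Whether these matches fall on the same stretch of Pigr was not examined. The listed ones among these genes stood at 2.79 FPKM (Klk14) or lower.

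Jchain followed as the second of the 8. It stood at 312 FPKM, 325 FPKM and 305 FPKM in replicates 1, 2 and 3, a mean of 314 ± 10.3 FPKM from 5403 fragments (chromosome 5, 88519809 to 88527897). The joining chain transcript was 220th of all symbols. Of the 8 genes, 2 averaged 100 FPKM or above, Pigr and Jchain, a level reached by 2.59% of all symbols. The ratio of Pigr to Jchain was 3.01 in replicate 1, 2.90 in replicate 2 and 3.01 in replicate 3, or 2.97 ± 0.0648, with an exact binomial 95% interval of 2.87 to 3.05 from the fragments of the 3 files together. This interval, like the others given here, covers counting error only. In all 3 files the epithelial receptor transcript was therefore higher than that of the joining chain.

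The transcription factors of the plasma cell program covered a wide range. Xbp1, both forms together, stood at 79.1 FPKM, 89.2 FPKM and 78.9 FPKM in replicates 1, 2 and 3 (82.4 ± 5.92 FPKM, chromosome 11, 5520641 to 5525993), with replicate 2 the highest. Pou2af1, the coactivator that binds the octamer factors of B lineage cells, stood at 4.62 FPKM, 3.74 FPKM and 2.68 FPKM (3.68 ± 0.974 FPKM, chromosome 9, 51213690 to 51240079) from 82.7 fragments in all. Prdm1, which represses the B cell program, stood at 1.42 FPKM, 0.839 FPKM and 0.957 FPKM (1.07 ± 0.305 FPKM, chromosome 10, 44437174 to 44458748) from 48.9 fragments. It was under 1 FPKM in replicates 2 and 3 and was the lowest of the 8 genes. The 2 octamer factors that Pou2af1 partners stood at 2.36 ± 0.0942 FPKM for Pou2f1, which most cells make, and 0.749 ± 0.497 FPKM for Pou2f2, that of B cells. The related Pou2f3, a factor of tuft cells, stood at 0.564 ± 0.197 FPKM.

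The cofactors of the endoplasmic reticulum were lower than Xbp1. Mzb1, a chaperone of antibody assembly on chromosome 18, stood at 10.3 FPKM, 11.8 FPKM and 10.8 FPKM in replicates 1, 2 and 3 (11.0 ± 0.735 FPKM) from 71.3 fragments. A GENCODE transcript named SPATA24 that runs through the gene shares 695 of its exon bases and has no row under that spelling here. Other spellings were not sought, and reads from the shared bases were not told apart from those of Mzb1. Derl3, a membrane protein of the pathway that withdraws misfolded proteins, stood at 1.13 FPKM, 1.35 FPKM and 1.37 FPKM (1.28 ± 0.136 FPKM, chromosome 10, 75893398 to 75895941). These 3 values rest on 5, 6 and 1.99 fragments, and the exact Poisson 95% interval of the pooled level ran from 0.670 to 2.15 FPKM. Its paralogs in the same pathway were higher in every file. Derl1 stood at 35.6 ± 0.832 FPKM, 27.9 ± 2.59 times Derl3, and Derl2 at 9.84 ± 0.580 FPKM, 7.74 ± 1.15 times Derl3.

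Sdc1, the surface marker, stood at 31.1 FPKM, 31.7 FPKM and 26.7 FPKM in replicates 1, 2 and 3 (29.8 ± 2.74 FPKM, chromosome 12, 8771396 to 8793687), the shallowest file being the lowest. Among the 4 syndecans, the family of cell surface heparan sulfate carriers to which it belongs, Sdc4 was highest at 167 ± 6.30 FPKM, or 5.62 ± 0.358 times Sdc1. Sdc2 stood at 22.2 ± 2.99 FPKM and Sdc3 at 7.99 ± 0.486 FPKM.

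In order of mean level the 8 genes were Pigr, Jchain, Xbp1, Sdc1, Mzb1, Pou2af1, Derl3 and Prdm1. Neighbours down to Derl3 differed 2.72-fold to 3.81-fold, and neither their values in the 3 files nor their pooled 95% intervals overlapped. Derl3 and Prdm1 overlapped in both, at a ratio of 1.20, so their order was not resolved at this depth. Of the 8 genes, 7 stood at 1 FPKM or more in every file, against 48.5% of all symbols. Their median was 20.4 ± 1.51 FPKM, beside 1.25 ± 0.0232 FPKM over all symbols.

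**Figure D2:**
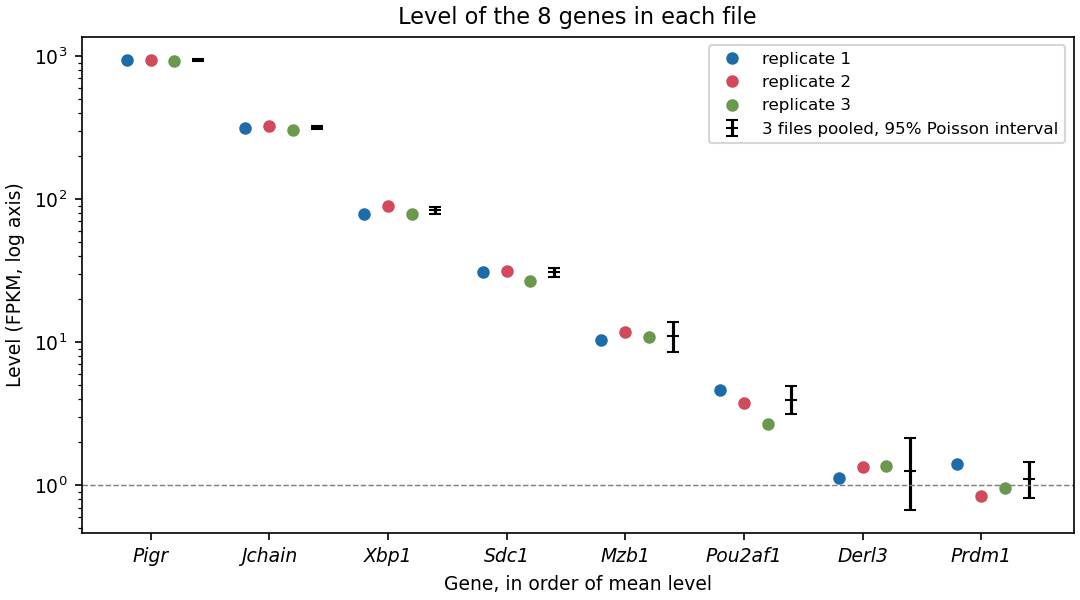
Level of each of the 8 genes (horizontal axis, in order of mean) in the 3 files (vertical axis, FPKM on a log scale), with the pooled level and its exact Poisson 95% interval in black and a dashed line at 1 FPKM. Values fall from 942 FPKM for Pigr to 0.839 FPKM for Prdm1, and only Derl3 and Prdm1 overlap with each other.

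Relative to the plasma cell program genes, Pigr was higher in every file, from 10.6 times Xbp1 in replicate 2 to 1124 times Prdm1 in the same file. The ratio of Pigr to Xbp1 was 11.4 ± 0.703 (95% interval 10.7 to 11.8) and that to Sdc1 31.4 ± 2.57 (28.4 to 32.8). The ratio to Mzb1 was 85.3 ± 5.49 (67.7 to 109). Against the lowest genes the ratios were wide: 266 ± 70.9 for Pou2af1 (190 to 296), 733 ± 87.8 for Derl3 (435 to 1398) and 915 ± 233 for Prdm1 (641 to 1147). With a pseudocount of 1 FPKM added to both genes these 3 ratios were 205, 410.1 and 457. The joining chain, a product of the plasma cells themselves, was also higher in every file than the other genes of the program. The ratio of Jchain to Xbp1 was 3.82 ± 0.158 (95% interval 3.59 to 4.02) and that to Sdc1 10.6 ± 0.739 (9.56 to 11.1). It was 28.7 ± 1.40 for Mzb1 (22.9 to 37.0) and 89.5 ± 23.2 for Pou2af1 (64.1 to 100.1). For Derl3 it was 247 ± 28.0 (147 to 473) and for Prdm1 309 ± 84.0 (217 to 388).

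**Figure D3:**
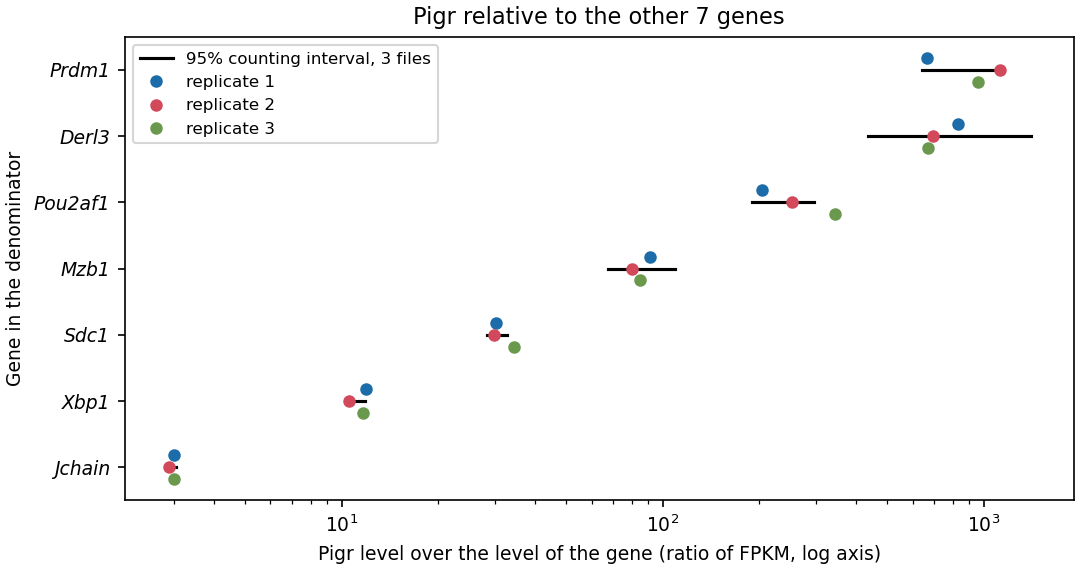
Ratio of the Pigr level to that of each of the other 7 genes (horizontal axis, log scale) in the 3 files, with black lines for the exact binomial 95% interval from the fragments of all files. The ratio runs from 2.90 to 3.01 for Jchain and from 663 to 1124 for Prdm1.

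No immunoglobulin chain could be set beside Jchain and Pigr. RefSeq on GRCm38.p6 names 395 segments of the 3 immunoglobulin loci, and 0 of them have a row in the tables used here. They comprise 215 of the heavy chain on chromosome 12, 168 of the kappa chain on chromosome 6 and 12 of the lambda chain on chromosome 16. All 13 constant regions are among them: Igha, the IgA heavy chain, with Ighm, Ighd, Ighe, Ighg1, Ighg2b, Ighg2c and Ighg3, the light chain Igkc, and Iglc1, Iglc2, Iglc3 and Iglc4. The tables list RefSeq transcripts of the NM and NR kinds, and 0 of the 395 segments have such a transcript in RefSeq. Inside the heavy chain locus 5 other rows are listed, and inside the kappa locus 2, all at 0 FPKM in every file. Of the 523 GENCODE immunoglobulin transcripts, 0 matched a listed gene over 100 bases at 97% identity or more. Igll1, the surrogate light chain of B cell precursors, has a row and was listed at 0 in every file, where 3 fragments over the files would make 0.482 FPKM; it was named after its value was seen. The immunoglobulin genes are therefore not analysed here, and neither the class of antibody nor its amount can be read from these tables.

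Other plasma cell genes had a lower median than the 8. The 8 are not all genes of plasma cells alone: Pigr is epithelial, and epithelial cells also make Xbp1 and Sdc1. Of 23 further genes, 14 stood at 1 FPKM or more in every file, against 48.5% of all symbols. The median of the 23 was 1.74 ± 0.175 FPKM, with file medians of 1.40 to 1.72 FPKM, beside 1.25 ± 0.0232 FPKM over all symbols. The highest were genes of protein export and folding that other secretory cells also make, Ssr4 at 108 ± 1.06 FPKM, Sec11c at 96.0 ± 8.84 FPKM and Txndc5 at 81.6 ± 6.05 FPKM, and the ectoenzyme Cd38 at 89.0 ± 6.12 FPKM. Cd27, Cd28 and Eaf2 were under 1 FPKM in every file, at 0.368 ± 0.365, 0.277 ± 0.0962 and 0.621 ± 0.274 FPKM. Of genes named after their values were seen for their part in plasma cells, Tnfrsf17, the survival receptor BCMA, stood at 2.59 ± 1.43 FPKM. The transcription factor Irf4 stood at 1.59 ± 0.188 FPKM.

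B cell genes lay lower. Of 18, 5 stood at 1 FPKM or more in every file, against 48.5% of all symbols. Under 1 FPKM in every file were 11, against 45.0% of all symbols, and the median of the 18 was 0.431 ± 0.0950 FPKM. Blnk, a signalling adaptor also made outside the B lineage, was highest at 34.2 ± 1.52 FPKM, followed by Bcl6 at 4.0 ± 0.369 FPKM and Cd79b, a chain of the B cell receptor, at 2.48 ± 0.130 FPKM, with Cd37 at 2.42 ± 0.815 FPKM. Ms4a1, the B cell surface gene of CD20, was under 1 FPKM in every file (0.233 ± 0.291 FPKM). Pax5, the B cell identity factor that Prdm1 represses, was listed at 0, where 3 fragments would make 0.326 FPKM. T cell genes, 3 of 9 at 1 FPKM or more in every file, had a median of 1.08 ± 0.215 FPKM, and macrophage genes, 8 of 8, one of 16.7 ± 1.88 FPKM. The part of these cells in the level of Prdm1 was not tested.

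Genes that draw and hold plasma cells were led by 2 chemokines. Ccl28, the mucosal chemokine that attracts IgA plasma cells, stood at 55.3 ± 2.21 FPKM and Cxcl12 at 36.8 ± 0.946 FPKM, while the adhesion genes Vcam1 and Madcam1 stood at 4.08 ± 0.988 and 0.564 ± 0.124 FPKM and Ccl25, the chemokine of the small intestine, at 3.73 ± 0.127 FPKM. Ccr10, the receptor for Ccl28, stood at 0.962 ± 0.422 FPKM and Ccr9, that for Ccl25, at 0.127 ± 0.110 FPKM; these 2 were named after their values were seen. Of 15 genes of IgA induction and plasma cell survival, 5 stood at 1 FPKM or more in every file, against 48.5% of all symbols. These 5 included the receptor gene Tgfbr2 (27.5 ± 2.09 FPKM), the retinoic acid enzyme Aldh1a1 (15.5 ± 0.461 FPKM), Tnfsf13, the gene of the survival factor APRIL (14.8 ± 1.8 FPKM), and Tgfb1 (5.50 ± 1.01 FPKM). The cytokine Il5 stood at 0.0643 ± 0.111 FPKM, and Il6 and Il10 were listed at 0, where 3 fragments would make 0.369 and 0.298 FPKM.

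Genes of vesicle transport and of the signals that induce Pigr were above 1 FPKM throughout. The cells behind these levels cannot be told from RNA of whole tissue. Of all symbols, 48.5% stood at 1 FPKM or more in every file. All 11 transcytosis genes stood at 1 FPKM or more in every file, and their median was 19.6 ± 1.78 FPKM. Rab25, a GTPase of the apical recycling compartment of epithelial cells, stood at 143 ± 3.22 FPKM and Rab11a at 58.2 ± 4.34 FPKM, with the SNARE Vamp8 at 113 ± 10.5 FPKM and the early endosome GTPase Rab5a at 45.3 ± 2.19 FPKM. All 15 genes of Pigr induction stood at 1 FPKM or more in every file as well, with a median of 17.0 ± 0.730 FPKM. The interferon gamma receptor genes Ifngr1 (143 ± 1.44 FPKM) and Ifngr2 (101 ± 6.25 FPKM) led them, followed by Irf1 (59.2 ± 2.43 FPKM) and the interleukin 17 receptor chain Il17rc (31.8 ± 2.38 FPKM). All 31 genes of endoplasmic reticulum folding and the unfolded protein response stood at 1 FPKM or more in every file. Their median was 26.3 ± 1.56 FPKM, with Calr at 255 ± 5.04 FPKM, Pdia3 at 205 ± 5.54 FPKM, Hsp90b1 at 163 ± 8.99 FPKM and Sec61b at 121 ± 8.79 FPKM.

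Pigr was higher in every file than each of 14 other genes for receptors of antibodies. The 4 highest of these were Tfrc, the transferrin receptor that can bind IgA, at 36.6 ± 2.15 FPKM, Fcgrt, the neonatal receptor that carries IgG across epithelia, at 23.0 ± 3.75 FPKM, Fcer1g at 20.6 ± 6.10 FPKM and Fcgr3 at 9.83 ± 2.14 FPKM. Pigr was 39.1, 35.96 and 48.6 times Fcgrt in replicates 1, 2 and 3. Fcamr and Fcmr, antibody receptor genes that lie on either side of Pigr on chromosome 1, stood at 0.558 ± 0.588 FPKM (130800902 to 130814740, named after its value was seen) and 0.467 ± 0.120 FPKM (130865777 to 130880790). Fcgr1 was under 1 FPKM in every file, and Fcer1a was listed at 0.

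**Figure D4:**
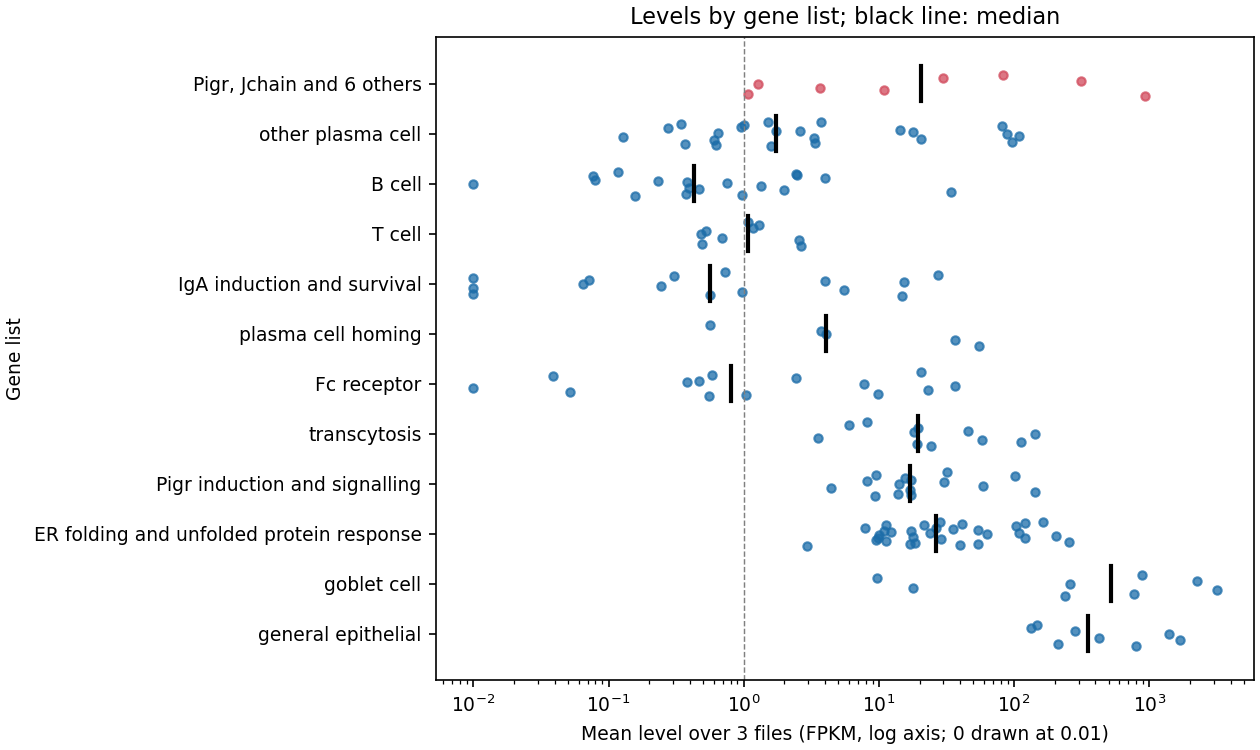
Mean level over the 3 files (horizontal axis, FPKM on a log scale, 0 drawn at 0.01) of each gene in 12 lists, with a black line at each list's median and a dashed line at 1 FPKM. The 8 genes described here, the epithelial Pigr among them, are in red with a median of 20.4 FPKM. Other plasma cell genes have a median of 1.74 FPKM and B cell genes one of 0.431 FPKM.

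Upstream sequences were available from RefSeq (GRCm38.p6) for 7 of the 8 genes, and the 250 bases before the start were searched on both strands for 5 motifs. The letters were CACGTG, the E-box that USF factors bind, TGACGTGG, a site for XBP1, and ATGCAAAT, the octamer. The endoplasmic reticulum stress element was sought as CCAAT and CCACG with 9 bases between them, and the core of interferon response elements as GAAA and GAAA with 2 bases between them. Pigr and Derl3 held an E-box, present in 6.02% of 32851 upstream regions of this length. Derl3 also held the stress element, on the other strand and without overlap, which 0.113% of the regions hold, and Pou2af1 the XBP1 site, held by 0.563%. The octamer (1.60% of regions) and the interferon core (2.98%) had no match in the 7 windows. A match describes the letters and is not a measured site. The windows of Pigr, the transporter, and Derl3, the gene with 2 motifs, are printed to show where the letters lie, with matches in capitals.
Pigr, plus strand, chr1:130826434-130826683: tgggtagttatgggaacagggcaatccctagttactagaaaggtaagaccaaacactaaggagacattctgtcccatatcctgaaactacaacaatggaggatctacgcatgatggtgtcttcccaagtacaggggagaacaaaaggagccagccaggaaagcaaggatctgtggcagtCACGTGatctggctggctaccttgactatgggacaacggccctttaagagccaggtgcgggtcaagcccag
Derl3, plus strand, chr10:75893148-75893397: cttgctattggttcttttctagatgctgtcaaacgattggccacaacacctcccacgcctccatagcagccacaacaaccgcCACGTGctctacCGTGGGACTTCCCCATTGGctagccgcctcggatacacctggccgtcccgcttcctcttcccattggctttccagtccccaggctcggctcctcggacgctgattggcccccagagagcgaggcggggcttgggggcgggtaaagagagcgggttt
The E-box of Pigr begins 71 bases before its start. In Derl3 the E-box begins 168 and the stress element 156 bases before the start.

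None of the 8 genes passed a test for differences between the files. The recovered depth was 1.24e+06 to 3.79e+06 mapped fragments per file. In a chi-square test over 8771 genes that have a single isoform and average 1 FPKM or above, 7 genes (0.0798%) passed a Benjamini-Hochberg adjusted p of 0.05 and 439 had an unadjusted p under 0.05, or 5.01%. Of the 8 genes, 7 were tested there and Xbp1 in the same test on isoform sums of 17060 genes, where 0.252% passed. Among the 8, 0 passed and 0 had an unadjusted p under 0.05, and the smallest, that of Xbp1, was 0.0818 (adjusted p = 0.911 by the chi-square test). A p that misses the threshold does not show equal values, and at 13.0 fragments the test could see little in Derl3. As to the tissue, all 8 colon genes checked were at 1 FPKM or more in every file, against 48.5% of all symbols. Among the 8 were the distal factors Hoxb13 at 195 ± 0.610 FPKM and Hoxd13 at 97.9 ± 2.29 FPKM, both named after their values were seen. Of 9 small intestine genes 5 reached 1 FPKM in every file too, with a summed level of 259 to 282 FPKM over the files. The highest were Fabp6 at 95.6 ± 5.85 FPKM, Slc15a1 at 85.3 ± 5.45 FPKM, Fabp2 at 41.7 ± 6.26 FPKM and Slc5a1 at 41.3 ± 1.96 FPKM. Alpi and Lct were under 1 FPKM in every file and Gata4 was listed at 0. All 7 liver genes with a row reached 1 FPKM in every file, with a summed level of 279 to 300.5 FPKM. Hepatocytes and small intestine epithelium of the mouse also make Pigr, and the part of either in its level was not tested.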

How the data were processed

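Polyadenylated RNA of distal colon was sequenced in what the labels give as 3 samples (TRIzol extraction, Illumina TruSeq RNA kit, per the labels' protocols). The authors deposited 1 isoform table per sample with FPKM, their lower and upper 95% bounds and a mean coverage signal per isoform, per the file headers. Per the submitters' processing notes, which give no settings, the tools were Cufflinks 2.2.1, Bowtie2 2.3.4.3 and TopHat2 2.1.1. Strandedness, trimming and treatment of reads with several matches are not stated there. The notes name GRCm39, but the starts of all 8 genes equal those of RefSeq on GRCm38.p6, so positions are given as GRCm38, counted from 1.

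FPKM were summed per symbol and not rescaled. The upper bound less the FPKM was taken to span 2 standard errors. Dividing the square of 1 standard error by the FPKM gave what a single fragment is worth. In 1-isoform genes over 800 bases with up to 30 fragments, 65.5% to 65.8% of the values so obtained lay within 0.01 of a whole number; the rest did not, so no count test was run. A Theil-Sen slope on length gave 3.78e+06, 3.79e+06 and 1.24e+06 mapped fragments. Pooled levels carry exact Poisson intervals, ratios exact Clopper-Pearson intervals on rounded fragments, and a gene at 0 the level that 3 fragments over the files would make; all leave out anything but counting error. Differences between the files were tested by chi-square against these sampling variances, after scaling to a common median ratio and with Benjamini-Hochberg adjustment. As nothing says that the files come from separate animals or libraries, p-values measure only the spread between files.

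The 8 genes and the lists were chosen with earlier results of these data known. Named are the 8 genes, in each list the 4 highest and up to 3 in list order under 1 FPKM in every file, where the text describes the list, the Derlin, syndecan and octamer families and the Prdm genes that average at least 1 FPKM; others are marked, and some genes that the rule takes are left out of the text. Near-identical transcripts (at least 100 bases at 97% identity) were sought with BLAST+ 2.17.0 in GENCODE M21. Of 8 liver symbols sought, 7 had a row. The software was SciPy 1.17.1, numpy 2.4.6, matplotlib 3.10.9 and pandas 2.3.3 under Python 3.11.15.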

Additional observations from a re-analysis of the deposited data

How the results depend on the processing

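No paired analysis was possible because the 3 files form 1 group. Rescaling each file to TPM changed the unit of every level without changing the order: Pigr 2184, Jchain 735, Xbp1 192.8, Sdc1 69.8, Mzb1 25.7, Pou2af1 8.62, Derl3 3.00 and Prdm1 2.51 TPM, with medians of 47.7 TPM for the 8 genes, 4.07 TPM for other plasma cell genes and 1.01 TPM for B cell genes. Using only the highest isoform set Xbp1 at 70.5 FPKM and the ratio of Pigr to Xbp1 at 13.3. A pseudocount of 1 FPKM lowered the ratios of Pigr to Mzb1, Pou2af1, Derl3 and Prdm1 to 78.2, 205, 410.1 and 457. Restricted to genes of 1 FPKM or more, the medians of other plasma cell and B cell genes were 9.08 and 2.45 FPKM. At a threshold of 2 FPKM 9 of the 23 and 3 of the 18 genes passed in every file. The share of all symbols at 2 FPKM was not computed, so these counts cannot be called high or low. The count of genes that differed between files was 11 at a mean of at least 10 FPKM and 43 with isoform sums of all genes; it was 4 without replicate 1, 4 without replicate 2 and 6 without replicate 3. Leaving out in turn a file, not known to be a separate library, kept the ratio of Pigr to Jchain between 2.95 and 3.01 and the spliced share of Xbp1 between 13.4% and 15.3%, and moved Prdm1 between 0.898 and 1.19 FPKM. The share by coverage is computed from the same estimates and equals that by FPKM. Depth limits Derl3, Prdm1, Pou2af1 and Mzb1, each with under 100 fragments.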

Other observations

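Of 14 Prdm genes, the family of chromatin and DNA binding factors to which Prdm1 belongs, 5 stood at 1 FPKM or more in every file, against 48.5% of all symbols. A mean of 1 FPKM or more was reached by 9 of the 14, and by 12629 of all 24346 symbols. Prdm2 and Prdm4 were highest at 8.38 ± 0.720 FPKM and 8.19 ± 0.307 FPKM, followed by Prdm15 (3.58 ± 0.326 FPKM), Prdm10 (2.00 ± 0.638 FPKM), Prdm16 (1.77 ± 0.356 FPKM) and Prdm9 (1.74 ± 1.12 FPKM). Prdm6 (1.09 ± 0.371 FPKM) stood at the level of Prdm1 (1.07 ± 0.305 FPKM). Prdm9, a factor of meiosis, ranged from 0.488 FPKM in replicate 3 to 2.65 FPKM in replicate 1. Prdm12 was listed at 0 in every file, where 3 fragments over the files would make 0.148 FPKM.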
